A study of Mus musculus with 20 samples.

Results

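Kidney transcripts of 10 genes that make, break down or sense prostaglandins were followed in 20 mice, out of 24411 genes in the deposited count table. The genes were *Ptgs1*, *Ptgs2*, *Ptgds*, *Hpgds*, *Ptges*, *Ptgis*, *Hpgd*, *Ptger1*, *Ptger3* and *Ptger4*, and they were taken by name. *Ptgds* was picked from earlier results of these data, on its fold change between mutants and controls and the evenness of that rise from mouse to mouse, so its levels in mutants and controls are described here without a test. All 20 mice were homozygous for the floxed *Pkd2* allele (Pkd2fl/fl) and received doxycycline at 50 mg/kg by intraperitoneal injection from postnatal day (P) 27 to P29. The 10 mutants (5 males and 5 females) also carried the transgenes Pax8rtTA and TetOCre. In this pair the *Pax8* promoter drives the doxycycline-dependent activator in renal tubules, so the deletion is directed there. *Pkd2* in vessels, stroma and immune cells was not measured apart. The 10 controls (5 males and 5 females) were treated littermates that lacked one of these transgenes. Kidneys were taken at P125, when mutants were cystic, and 1 library of whole-kidney total RNA was sequenced per mouse.

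Prostaglandins are made from arachidonic acid, which phospholipases free from membranes. The cyclooxygenases COX-1 (*Ptgs1*) and COX-2 (*Ptgs2*) turn it into the shared intermediate prostaglandin H, and a terminal synthase then sets which product is made: prostaglandin D by the lipocalin-type (*Ptgds*) or the hematopoietic (*Hpgds*) synthase, prostaglandin E by microsomal prostaglandin E synthase (*Ptges*) and prostacyclin by *Ptgis*. *Hpgd* encodes the dehydrogenase that begins their inactivation. *Ptger1*, *Ptger3* and *Ptger4* encode the EP1, EP3 and EP4 receptors for prostaglandin E, the main renal prostanoid, which tunes salt and water handling in the thick ascending limb and collecting duct. EP3 lowers cyclic AMP and EP4 raises it, and cyclic AMP is well known as a driver of fluid secretion and growth in kidney cysts.

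Libraries held 11307741 to 19324073 counts (median 15813304.5), and levels are given in CPM, counts scaled to 1 common library total, on library sizes scaled by the TMM method. *Pkd2* checked the labels: it averaged 292 CPM ± 31.3 (SD, n = 5) in male controls against 120 ± 9.85 in male mutants, and 257 ± 48.7 in female controls against 145 ± 33.7 in female mutants. The library of female mutant 4 stood apart, with the lowest total and 14850 genes detected against 16776 to 17724 in the others. This mouse also had the highest *Pkd2* of the 10 mutants (181 CPM). Its kidney-to-body weight, 0.836%, was the lowest of the mutants and below that of male control 5 (0.896%). Results that rest on it are given with and without it. Fits without it therefore leave out both this library and the mutant with the most *Pkd2* and the smallest kidney. Markers of the proximal tubule, thick ascending limb, collecting duct and podocytes were present in every library, and 8 proximal tubule markers alone summed to 6580 to 13088 CPM. Fold changes and adjusted p-values below come from edgeR's quasi-likelihood test with Benjamini-Hochberg adjustment over all genes tested, with litter (3 litters) as a term, and a gene with an adjusted p under 0.01 is called a differentially expressed gene (DEG). Each library was 1 mouse, so p-values measure the spread between mice.

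**Figure D1:**
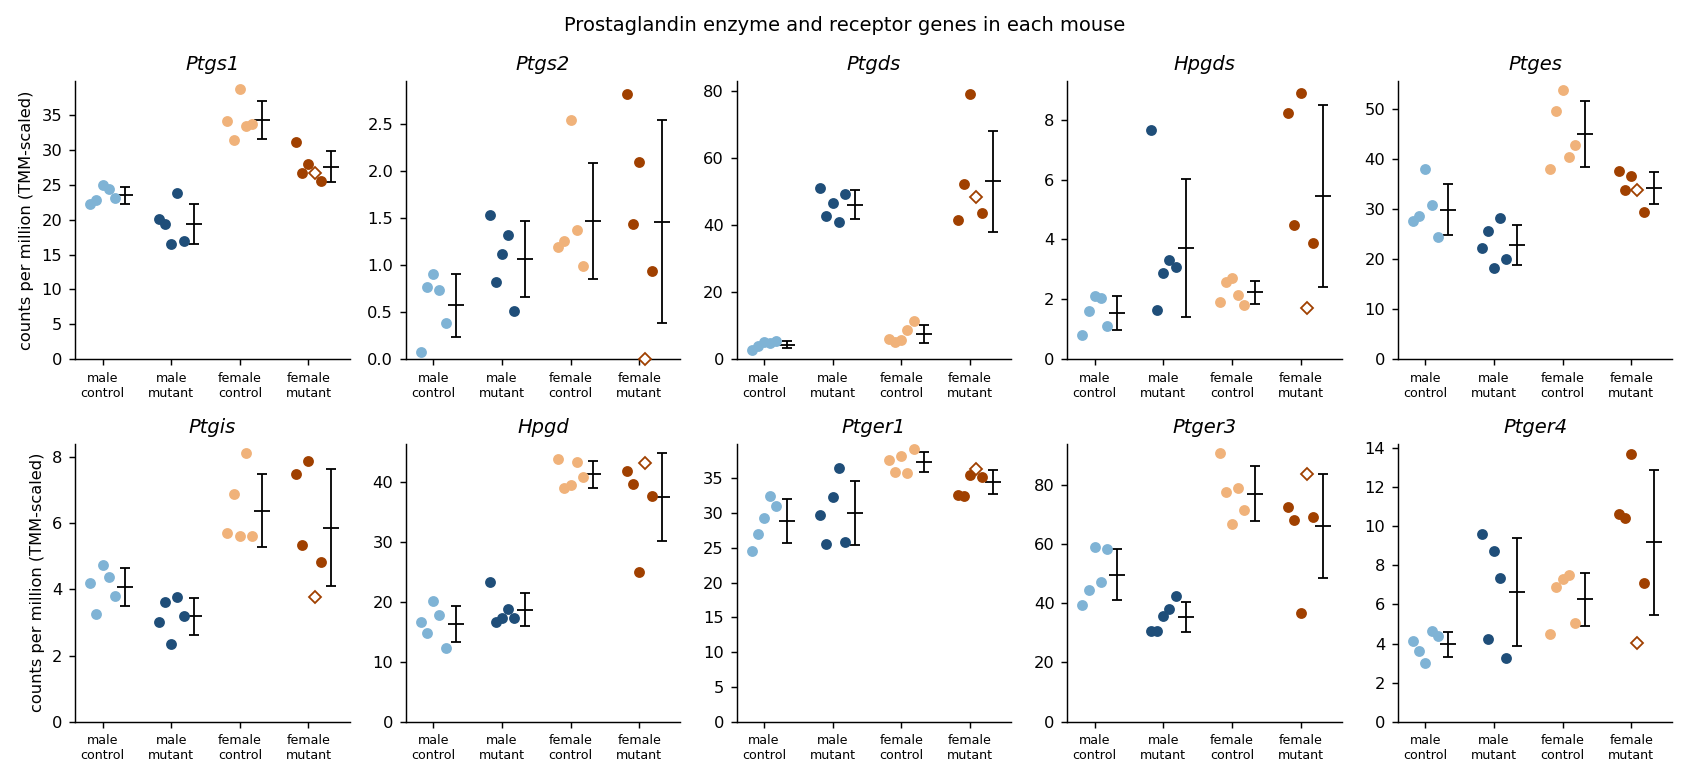
Level of each of the 10 genes in each of 20 mice, in CPM scaled by TMM, with mean and SD (bars) of 5 mice per group to the right of the points; the open diamond is female mutant 4. The panel of *Ptgds* separates all mutants (40.9 to 79.2 CPM) from all controls (2.57 to 11.4 CPM), and the panel of *Hpgd* separates all males (12.3 to 23.4 CPM) from all females (25.1 to 43.9 CPM).

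*Ptgds*, the lipocalin-type prostaglandin D synthase, stood apart from the other 9 genes. It lies on the minus strand of chromosome 2 (mm10, chr2:25466709-25470046; GENCODE vM21). In male controls its level was 2.57, 3.89, 4.95, 4.79 and 5.49 CPM, and in male mutants it was 51.1, 42.8, 46.7, 40.9 and 49.2 CPM. In female controls it was 5.95, 5.24, 5.72, 8.82 and 11.4 CPM, and in female mutants 41.6, 52.3, 79.2, 48.4 and 43.7 CPM. Every mutant was thus above every control of either sex, and the raw counts behind these levels were 35 to 150 in controls and 565 to 1587 in mutants. The fitted difference between mutants and controls was 3.40 (SE 0.15) on the log2 scale in males, a 10.6-fold rise, and 2.90 (SE 0.26) in females, a 7.47-fold rise. Over all mice it was 3.12 (SE 0.17), with a range of 3.03 to 3.27 when each mouse was left out in turn. In litter C alone, which held 2 mutants and 2 controls, it was 2.50. Within each of the 6 combinations of sex and litter the mutants exceeded the controls, by 1.93 to 3.62 in mean log2 CPM.

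The spread of *Ptgds* among mutants was small in males, where the mean was 46.1 CPM ± 4.29 (SD, n = 5), and larger in females, 53.1 ± 15.2 (SD, n = 5), where female mutant 3 was highest. Evenness from mouse to mouse was part of why *Ptgds* was picked, so its sex differences are also described without a test. For males against females the log2 difference was -0.65 (SE 0.22) in controls, where the groups overlapped, and -0.15 (SE 0.19) in mutants. The value in mutants ran from -0.28 to -0.012 with 1 mouse left out, the latter without female mutant 3.

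The promoter of *Ptgds* is shown because this gene carried the largest difference of the 10. RefSeq (GRCm38.p6) gives 250 bases before its start of the gene. Of these, the 157 farthest from that start, at chr2:25469843-25469999 (minus strand), are printed, since the other 93 lie in an annotated exon. The GENCODE span of *Ptgds* begins farther upstream, at 25470046. The printed bases are thus upstream of the RefSeq start only, and lie inside the GENCODE span, between its exons. Capitals mark matches to CANNTG.
Ptgds promoter: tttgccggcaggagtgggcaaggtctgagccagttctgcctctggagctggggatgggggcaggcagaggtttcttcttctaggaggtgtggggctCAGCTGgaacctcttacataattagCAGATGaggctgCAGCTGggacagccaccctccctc
The 250 bases before the start of each gene were searched on both strands for 5 motifs, namely TATAAA (the TATA box), CANNTG (the E-box), TGACTCA (the AP-1 site), AGGTCA (a nuclear receptor core) and AGAACA (a steroid receptor core). CANNTG, which reads the same on both strands, matched 3 times in the *Ptgds* promoter and was held by 66.0% of 27025 promoters. TGACTCA matched once in the *Ptgds* window, from 35 to 29 bases before the RefSeq start, and was held by 4.43% of promoters. This match is among the bases not printed, which lie in an annotated exon. None of the other 7 members with an entry held TGACTCA in this window. These matches describe letters and not binding.

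Of the 9 genes other than *Ptgds*, 3 were DEGs between mutants and controls over all mice: *Hpgds* rose, and *Ptgs1* and *Ptges* fell. The same test called 15.9% of 14191 genes (10.0% higher and 5.86% lower in mutants). In males 1 of 9 was called, against 8.46% of 14010 genes (5.25% higher and 3.20% lower), and this was *Ptger3*, which fell. In females none of the 9 was called, against 0.637% of 14439 genes (0.457% higher and 0.180% lower). With DESeq2's Wald test the counts were also 3, 1 and 0, and in females 3 of the 9 (*Ptgs1*, *Ptges* and *Hpgds*) had an unadjusted p under 0.05 with edgeR. Fold changes of the 9 genes in the joint comparison had a median of -0.06 on the log2 scale, beside -0.01 for all genes tested.

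**Figure D2:**
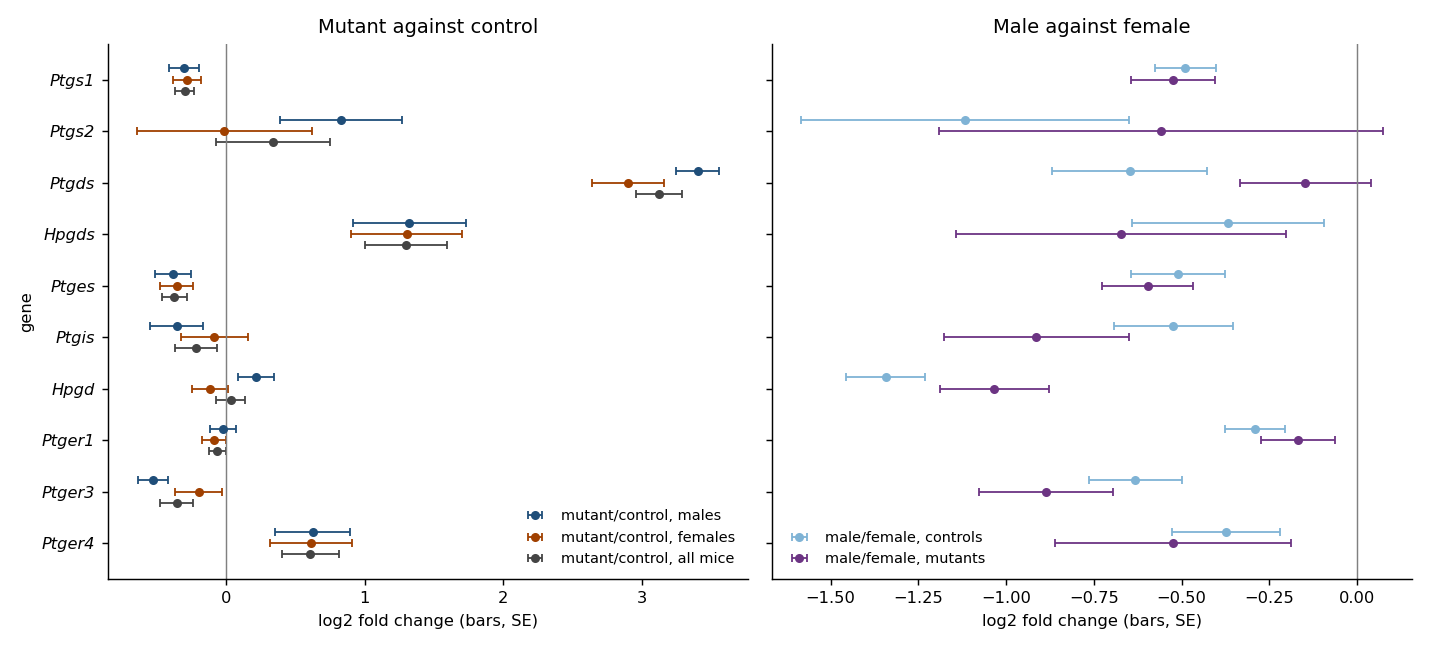
Log2 fold change of each gene with its SE (bars) for mutants against controls in males, in females and in all mice (left) and for males against females in controls and in mutants (right). *Ptgds* lies near 3 in all 3 genotype comparisons, and all 10 genes lie below 0 in both sex comparisons; the 2 panels have different scales.

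*Hpgds*, the hematopoietic prostaglandin D synthase found in mast cells, some T cells and antigen-presenting cells, was much scarcer than *Ptgds*. Its level was 0.807, 1.60, 2.10, 2.03 and 1.10 CPM in male controls and 7.65, 1.64, 2.88, 3.30 and 3.07 CPM in male mutants. In female controls it was 1.92, 2.56, 2.71, 2.15 and 1.82 CPM, and in female mutants 8.23, 4.50, 8.89, 1.71 and 3.87 CPM. Groups overlapped in both sexes through male mutant 2 and female mutant 4, which were at or below control levels. Over all mice *Hpgds* rose 2.46-fold (log2 1.30, SE 0.29, adjusted p = 0.00302), while neither the male value of 1.32 (adjusted p = 0.0397) nor the female value of 1.31 (adjusted p = 0.0863) passed on its own. Mutants exceeded controls in 6 of 6 combinations of sex and litter. Without male mutant 1 the joint value was 1.05 (adjusted p = 0.0146), which is no longer a DEG. Without female mutant 4 the female value was 1.56 and was called (adjusted p = 0.00465), and without male mutant 2 the male value was 1.61 and was called (adjusted p = 0.00477). In the other direction, the male value was 0.65 without male mutant 1 (adjusted p = 0.209) and the female value 0.92 without female mutant 3 (adjusted p = 0.222).

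Markers of several cell types are set beside *Hpgds* here. The summed level of 8 macrophage and dendritic cell markers was 106 to 118 CPM in male controls and 158 to 384 in male mutants, and 136 to 172 in female controls and 144 to 524 in female mutants. All 8 were DEGs, higher in mutants, over all mice, beside 10.0% of all genes called higher. The 3 mutants with the highest *Hpgds* (female mutants 3 and 1 and male mutant 1) also had the 3 highest marker sums, 524, 430 and 384 CPM, while female mutant 4, with the lowest *Hpgds* of the female mutants, had 144 CPM. The summed level of fibroblast and pericyte markers was likewise highest in female mutant 3 (1199.95 CPM) and male mutant 1 (900 CPM). Among female mutants this sum was lowest in female mutant 4 (377 CPM). Among male mutants it was lowest in male mutant 5 (322 CPM), and not in male mutant 2 (353 CPM), which had the lowest *Hpgds* of that group. The part of any of these cells in the *Hpgds* result was not tested. Of 7 mast cell markers, *Fcer1a* was at 0 in all 20 mice, *Cpa3*, *Tpsb2*, *Cma1* and *Mcpt4* were at 0 in 12 to 18 mice, and only *Kit* and *Ms4a2* passed the filter on low counts. Their list summed to 18.3 to 35.9 CPM, most of it *Kit*, which tubule cells also express, and *Ms4a2* was a DEG higher in mutants (log2 1.34, adjusted p = 0.000198). Of 7 T and B lymphocyte markers 5 were tested and none was called over all mice, though all 5 had positive differences (median 0.66). Among female mutants their list summed highest in female mutants 3, 2 and 1 (22.2, 16.7 and 16.1 CPM) and lowest in female mutant 4 (3.68 CPM). Among male mutants it summed highest in male mutant 3 (12.8 CPM), above male mutant 1 (11.5 CPM), which had the highest *Hpgds* of that group. In whole-kidney RNA, more cells of a type and more RNA per cell cannot be told apart. This holds for the *Ptgds* difference above and for each result below.

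*Ptgs1*, which encodes the constitutive cyclooxygenase COX-1, was lower in mutants and lower in males. Its level was 22.2, 22.8, 25.0, 24.5 and 23.1 CPM in male controls and 20.1, 19.4, 16.6, 23.9 and 17.0 CPM in male mutants. It was 34.2, 31.5, 38.8, 33.5 and 33.8 CPM in female controls and 31.2, 26.7, 28.0, 26.8 and 25.5 CPM in female mutants. Female mutants were all below female controls, male groups overlapped through male mutant 4, and all 10 males were below all 10 females. Over all mice *Ptgs1* fell by 0.30 on the log2 scale in mutants (SE 0.07, adjusted p = 0.00342), and this stayed a DEG without any 1 mouse (adjusted p 0.00105 to 0.00959). Within a sex the differences were -0.30 for males (adjusted p = 0.0659) and -0.28 for females (adjusted p = 0.132), and neither passed. *Ptgs1* was lower in male than in female controls by 0.49 (SE 0.09, adjusted p = 0.00124), a call lost without female control 1 (adjusted p = 0.0144) or male control 4 (adjusted p = 0.0116). Between the sexes of mutants it differed by 0.52 in the same direction (adjusted p = 0.0163).

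*Ptgs2*, the inducible cyclooxygenase COX-2, was the scarcest of the 10 genes, with 0 to 56 counts per library. Its level was 0.0734 to 0.900 CPM in male controls, 0.512 to 1.53 in male mutants, 0.984 to 2.53 in female controls and 0 to 2.81 in female mutants. The 0 was in female mutant 4 and allows a level of up to 0.257 CPM (3 counts, counting error only). Neither the joint difference (0.34, SE 0.41, adjusted p = 0.593) nor that in males (0.83, adjusted p = 0.214) or females (-0.01, adjusted p = 0.995) was detectable at this depth. Male controls were all below female controls, with a difference of 1.12 on the log2 scale toward females (SE 0.47, adjusted p = 0.0929). Per kilobase of exon, *Ptgs1* exceeded *Ptgs2* by 13.1 to 357-fold in the 19 mice with a *Ptgs2* count. The 357 was in male control 1 and rests on 1 *Ptgs2* count. The next highest ratio was 70.4, and group medians ran from 18.8 to 39.6.

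*Ptges*, the microsomal prostaglandin E synthase, followed *Ptgs1* in direction in each comparison. Its level was 27.5, 28.6, 37.9, 30.7 and 24.3 CPM in male controls and 22.2, 25.6, 18.2, 28.1 and 20.0 CPM in male mutants. It was 38.0, 49.5, 53.7, 40.2 and 42.8 CPM in female controls and 37.6, 33.8, 36.6, 33.8 and 29.4 CPM in female mutants. Female mutants were all below female controls, by a narrow margin, while male groups overlapped. Over all mice *Ptges* fell by 0.37 on the log2 scale (SE 0.09, adjusted p = 0.00436). The fall was of like size without any 1 mouse, 0.34 to 0.42, but the call was lost without male mutant 1, male control 4, female control 3, female control 5 or female mutant 5 (adjusted p 0.0101 to 0.0133). Males had less *Ptges* than females, by 0.51 in controls (adjusted p = 0.0130) and 0.60 in mutants (adjusted p = 0.0136), and in both genotypes the sexes did not overlap.

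*Ptgis*, the prostacyclin synthase of vessel walls and interstitial cells, gave no DEG in any comparison. It was 3.26 to 4.72 CPM in male controls, 2.36 to 3.76 in male mutants, 5.60 to 8.11 in female controls and 3.77 to 7.89 in female mutants. Over all mice its difference between mutants and controls was -0.22 (SE 0.15, adjusted p = 0.314). All male controls were below all female controls (log2 difference -0.52, adjusted p = 0.0353), and all male mutants were below all female mutants (-0.91, adjusted p = 0.0420).

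*Hpgd*, the dehydrogenase that inactivates prostaglandins, showed the clearest sex difference and no detectable difference by genotype. It lies on the plus strand of chromosome 8 (mm10, chr8:56294585-56321043). Its level was 16.7, 14.8, 20.2, 17.9 and 12.3 CPM in male controls and 23.4, 16.6, 17.4, 18.9 and 17.4 CPM in male mutants. It was 43.9, 39.0, 39.6, 43.4 and 41.0 CPM in female controls and 41.9, 39.7, 25.1, 43.3 and 37.8 CPM in female mutants. Every male was below every female, and female mutant 3, at 25.1 CPM, came nearest to the males. Female controls had 2.54-fold more *Hpgd* than male controls (log2 difference -1.34 for males against females, SE 0.11, adjusted p = 3.69e-06). Female mutants had 2.05-fold more than male mutants (-1.03, SE 0.16, adjusted p = 0.00199). The control value held without any 1 mouse, from -1.46 to -1.24. The mutant value ranged from -1.15 to -0.96 and was no longer called without female mutant 1, female mutant 5, male mutant 3 or male mutant 5 (adjusted p 0.0116 to 0.0177). Between genotypes the joint difference was 0.03 (SE 0.10, adjusted p = 0.845), with 0.22 for males (adjusted p = 0.265) and -0.12 for females (adjusted p = 0.689).

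The promoter of *Hpgd* is shown because this gene carried the strongest sex difference. The 250 bases before its start, at chr8:56294302-56294551 on the plus strand of GRCm38.p6 (RefSeq), are printed with matches to CANNTG in capitals.
Hpgd promoter: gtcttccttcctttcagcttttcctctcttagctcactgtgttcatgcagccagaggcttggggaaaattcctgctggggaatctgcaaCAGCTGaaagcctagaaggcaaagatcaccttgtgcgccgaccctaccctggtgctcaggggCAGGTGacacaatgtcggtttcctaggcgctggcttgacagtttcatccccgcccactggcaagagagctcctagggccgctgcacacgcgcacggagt
CANNTG matched 2 times, and none of the other 4 motifs matched. AGAACA, which 16.2% of all promoters held, matched once each in the promoters of *Ptgs1* and *Ptges* and in none of the other members with an entry. A missing match says only that these letters were not in this window.

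All 10 genes, *Ptgds* included, had negative differences for males against females in both genotypes. Of all genes tested, 51.4% had negative differences in controls and 53.5% in mutants. Within single litters of mutants, mean log2 CPM was higher in males for *Ptgds* in litters A (by 0.17) and C (by 0.17). This was also so for *Ptgs2* in litter B (by 0.82), which held female mutant 4. In controls 3 of the 9 genes other than *Ptgds* were DEGs, all lower in males (*Ptgs1*, *Hpgd* and *Ptger3*). The test called 17.8% of 14123 genes there (8.75% higher and 9.02% lower in males). In mutants 1 of the 9 was a DEG (*Hpgd*), against 5.42% of 14416 genes called (3.59% higher and 1.84% lower). The count in mutants rose to 4 with DESeq2's Wald test and to 5 in a fit of all 20 mice, in both cases with *Hpgd*, *Ptgs1*, *Ptges* and *Ptger3* among them. Over all genes tested the median difference was -0.01 in controls and -0.03 in mutants, beside -0.52 and -0.58 for the 10 genes, *Ptgds* included. Podocyte and endothelial markers were also lower in male controls (5 of 5 and 6 of 6 were DEGs), as were 4 of 5 markers of the thick ascending limb and macula densa, and the part of tissue make-up in the sex differences was not tested.

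*Ptger3*, which encodes the EP3 receptor, was the most abundant of the receptor genes and was lower in males. Its level was 39.3, 44.6, 58.9, 47.3 and 58.4 CPM in male controls and 30.7, 30.5, 35.8, 37.9 and 42.5 CPM in male mutants. It was 90.8, 77.4, 66.7, 78.9 and 71.3 CPM in female controls and 72.5, 68.2, 36.8, 83.7 and 69.2 CPM in female mutants. Mutants and controls overlapped in both sexes, and female mutant 3 was in the range of males. In males *Ptger3* fell by 0.53 on the log2 scale (SE 0.11, adjusted p = 0.00628). This call was lost without a litter term (adjusted p = 0.0128), with all 20 mice in 1 fit (0.0509) and without any 1 of 8 of the 10 males (0.0105 to 0.0228, all but male controls 1 and 3). Over all mice the fall was 0.36 (adjusted p = 0.0306), or 0.44 without female mutant 4, which was called (adjusted p = 0.00372). In females the difference was -0.20 (adjusted p = 0.587), and the test of a difference between the sexes gave -0.31 (SE 0.23, adjusted p = 1).

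Sex differences in *Ptger3* were larger than those by genotype. Male controls were all below female controls, by 0.63 on the log2 scale (SE 0.13, adjusted p = 0.00344), and male mutants were below female mutants by 0.89 (adjusted p = 0.0127). The control call was lost without female control 1 (difference -0.45, adjusted p = 0.0615) or male control 4 (-0.65, adjusted p = 0.0242). EP3 is known from the thick ascending limb and collecting duct. Of 5 markers of the thick ascending limb and macula densa 4 were DEGs lower in mutants over all mice, with a list median of -0.69. So were 2 of 7 principal cell markers, with a list median of -0.08, beside 5.86% of all genes called lower. The part of these cells in the *Ptger3* result was not tested.

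*Ptger4*, which encodes the EP4 receptor, was higher in some mutants only. Its level was 4.11, 3.64, 2.9996, 4.62 and 4.39 CPM in male controls and 9.58, 4.25, 8.72, 7.33 and 3.24 CPM in male mutants. It was 4.50, 6.87, 7.31, 7.51 and 5.07 CPM in female controls and 10.6, 10.4, 13.7, 4.03 and 7.10 CPM in female mutants. Male mutants 2 and 5 and female mutants 4 and 5 were within the range of controls of their sex or below it. The joint difference was 0.61 on the log2 scale (SE 0.21, adjusted p = 0.0358) and was not called, whereas without female mutant 4 it was 0.72 and was called (adjusted p = 0.00250). In females alone it was 0.61 (adjusted p = 0.276), 0.83 (adjusted p = 0.00957) without that mouse and 0.40 (adjusted p = 0.524) without female mutant 3. In males it was 0.62 (adjusted p = 0.131), 0.25 (adjusted p = 0.511) without male mutant 1 and 0.90 (adjusted p = 0.0388) without male mutant 5. The joint value in litter C alone was 0.03.

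*Ptger1*, which encodes the EP1 receptor, did not differ detectably between mutants and controls (joint log2 difference -0.06, SE 0.06, adjusted p = 0.484). It was 24.6 to 32.5 CPM in male controls, 25.5 to 36.4 in male mutants, 35.8 to 39.2 in female controls and 32.5 to 36.3 in female mutants. These counts are uncertain, because the strand setting of the counting is not given in the sources used here. Male controls were all below female controls (-0.29, adjusted p = 0.0224).

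**Figure D3:**
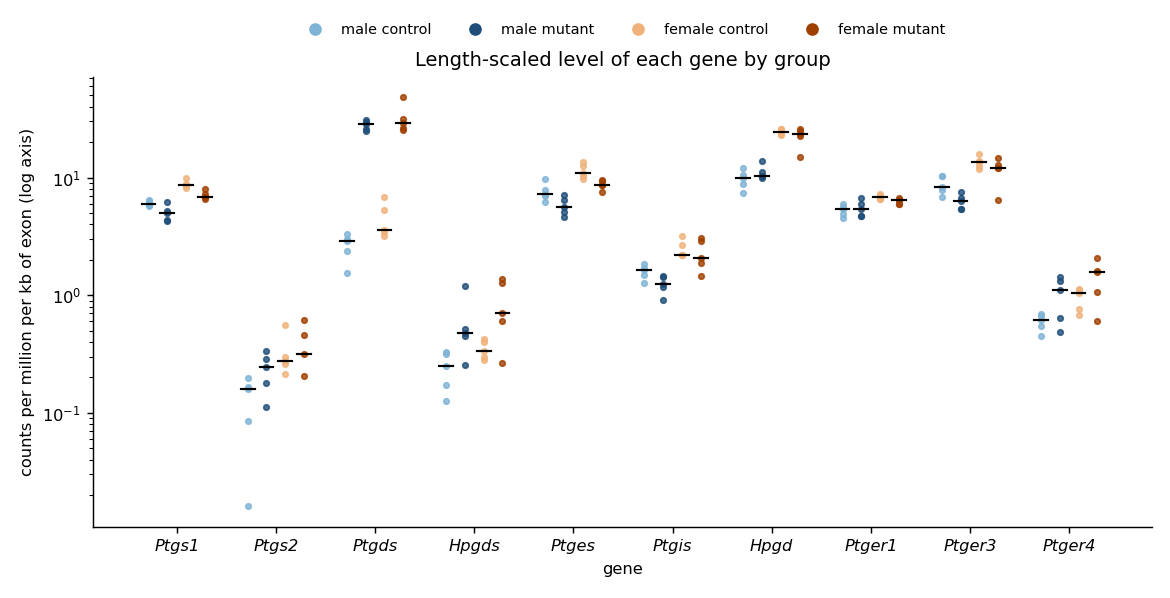
CPM divided by the kilobases of merged exon of each gene, on a log axis, with 1 point per mouse and a black line at the median of the 5 mice of a group; the *Ptgs2* value of 0 in female mutant 4 cannot be drawn on this axis. *Ptgds* moves from the middle of the order in controls to the top in mutants, while *Hpgds* and *Ptgs2* stay at the bottom.

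Per kilobase of exon the order of levels could be compared between genes. In female controls *Hpgd* led with 24.6 CPM per kb ± 1.32 (SD, n = 5), above *Ptger3* with 13.5 ± 1.60, *Ptges* with 11.4 ± 1.67 and *Ptgs1* with 8.85 ± 0.699. *Hpgd* did not overlap *Ptger3*, whereas *Ptger3* and *Ptges*, and *Ptges* and *Ptgs1*, overlapped. In male controls the same 4 genes led in the same order, with *Hpgd* at 9.73 ± 1.77, and each overlapped the next. *Ptgds* ranked 6 or 7 of the 10 in each control mouse, with 2.63 ± 0.693 CPM per kb in males and 4.50 ± 1.58 in females. It ranked 1 in each of the 10 mutants, with 28.0 ± 2.60 in males and 32.2 ± 9.23 in females. *Ptger4*, *Hpgds* and *Ptgs2* ranked 8, 9 and 10 in all 4 groups, and in mutants each of these overlapped the next.

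Ratios between genes within a mouse do not depend on library scaling. The ratio of *Ptgds* to *Ptges* per kilobase was 0.222 to 0.633 in the 10 controls and 2.64 to 6.11 in the 10 mutants, so *Ptgds* was below *Ptges* in each control and above it in each mutant. This ratio leaves out *Ptges2* and *Ptges3*, further prostaglandin E synthases. The ratio of *Ptges* to *Hpgd*, a synthase over the inactivating enzyme, was 0.704 to 0.843 in male controls, 0.405 to 0.657 in male mutants, 0.371 to 0.581 in female controls and 0.334 to 0.625 in female mutants. Male controls were above all other mice in this ratio. Since *Ptgds* was picked for its rise, these ratios are a description.

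**Figure D4:**
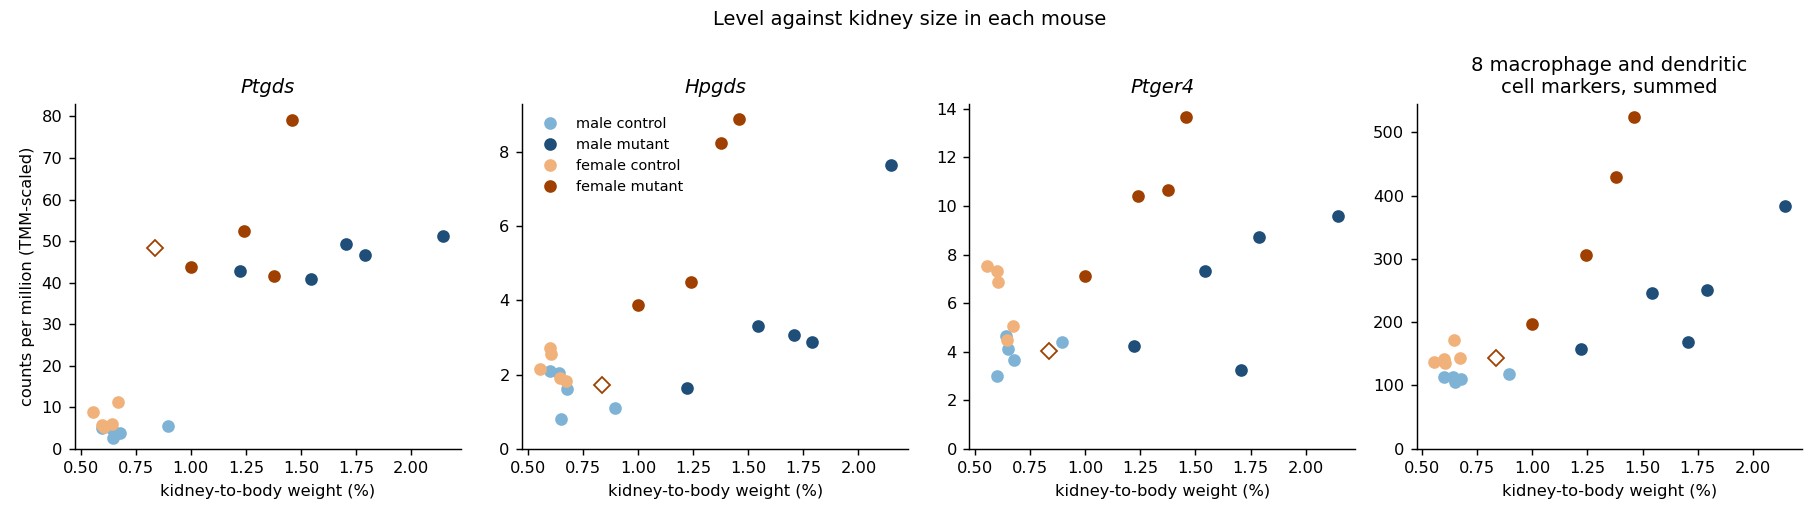
CPM of *Ptgds*, *Hpgds* and *Ptger4* and of 8 summed macrophage and dendritic cell markers against kidney-to-body weight in percent, with 1 point per mouse; the open diamond is female mutant 4. In female mutant 4, the mutant with the smallest kidney, *Hpgds*, *Ptger4* and the marker sum are at control levels; *Ptgds*, which was picked for an even rise, is at 40.9 CPM or more in all mutants.

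Kidney-to-body weight (KBW), the weight given for a kidney as a percentage of body weight, ran from 0.836% to 2.15% in mutants. The slope of expression on KBW among the 10 mutants was fitted with sex as a term. None of the other 9 genes, and 0 of 14865 genes tested (0% called), passed the threshold, while 3274 genes had an unadjusted p under 0.05, *Hpgds* and *Ptger4* among them. This fit had little power, since it recovered 0.5% of simulated slopes of 1 log2 unit per percentage point. *Hpgds* had a slope of 2.65 log2 units per percentage point (SE 0.43, adjusted p = 0.0271), *Ptger4* 1.64 (SE 0.47, adjusted p = 0.0773), *Ptgs2* 2.18 (SE 1.08, adjusted p = 0.259) and *Ptger3* -0.48 (adjusted p = 0.415). Without female mutant 4 the slopes were 2.36 for *Hpgds* (adjusted p = 0.119), 1.33 for *Ptger4* (adjusted p = 0.215), 1.29 for *Ptgs2* (adjusted p = 0.391) and -0.28 for *Ptger3* (adjusted p = 0.749). With other mice left out, *Ptgs2* reached 3.09 and *Ptger3* -0.93, both without male mutant 2, and *Ptger3* was -0.12 without female mutant 3. With DESeq2's Wald test 579 genes were called, *Hpgds* among them (2.67, adjusted p = 7.98e-06). Without the sex term the slopes were 0.90 for *Hpgds* (adjusted p = 0.571), 0.46 for *Ptger4* (adjusted p = 0.741), 0.88 for *Ptgs2* (adjusted p = 0.744) and -1.09 for *Ptger3* (adjusted p = 0.100). The slope of *Ptgds*, which bears on the evenness it was picked for, was 0.49 (SE 0.28), 0.19 to 0.66 with 1 mouse left out (without female mutant 3 and male mutant 2) and 0.092 without the sex term, and is given without a test.

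The change from control to mutant was not shown to differ between the sexes for any of the 9 genes. The sex-by-genotype term called 0 of 14820 genes (0%) with edgeR at the threshold, of which 618 had an unadjusted p under 0.05, none of the 9 among them, while DESeq2 called 18 genes, 0 of the 9 among them. For *Hpgd* the term was 0.36 (SE 0.20, adjusted p = 1). For *Ptgds* the male and female values above, 3.40 and 2.90, are given side by side without a test.

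The other genes of eicosanoid metabolism formed 5 lists with 38 genes, of which 25 passed the filter on low counts in the joint comparison. There were 7 DEGs, 3 higher and 4 lower in mutants, and the median over the 25 was 0.00 on the log2 scale. Over all 14191 genes tested the share called was 15.9% (10.0% higher and 5.86% lower in mutants). Among 9 tested synthases and reductases, *Akr1c18*, an aldo-keto reductase that acts on progesterone and makes prostaglandin F, fell by 1.25 (SE 0.21, adjusted p = 0.000268), and *Akr1b7*, a related reductase, fell by 0.78 (SE 0.19, adjusted p = 0.00473). The *Akr1b7* call was lost without male mutant 1, male controls 4 or 5, female controls 2 or 5, or female mutant 5 (adjusted p 0.0103 to 0.0158). *Ptgr1*, a reductase that acts on oxidized prostaglandins and leukotriene B, rose by 0.47 (SE 0.08, adjusted p = 0.000442). The other 6 (*Ptges2*, *Ptges3*, *Tbxas1*, *Fam213b*, *Cbr1* and *Ptgr2*) did not pass, with values from -0.25 to 0.32. None of 5 phospholipases and lipases of arachidonic acid release passed.

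Of the other prostanoid receptors, 3 of 6 were expressed enough to test. *Ptgfr*, the prostaglandin F receptor, fell in the joint comparison by 0.69 (SE 0.09, adjusted p = 2.46e-05), in males by 0.62 (adjusted p = 0.00916) and in females by 0.74 (adjusted p = 0.00430). The male value was just under the threshold. In females no gene at all was called lower without female control 2, 3 or 4 or female mutant 5, so the female call was lost in each of these fits. *Ptgir*, the prostacyclin receptor, and *Tbxa2r*, the thromboxane receptor, had 0.22 (adjusted p = 0.236) and -0.28 (adjusted p = 0.116). The prostaglandin D receptors *Ptgdr* and *Ptgdr2* and the EP2 receptor *Ptger2* did not pass the filter.

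Of 6 tested leukotriene and lipoxygenase genes 3 were DEGs, beside 15.9% of all genes tested. *Alox5ap*, the 5-lipoxygenase activating protein of leukocytes, rose by 1.19 (SE 0.25, adjusted p = 0.00193), and *Cysltr1*, a cysteinyl leukotriene receptor, rose by 0.98 (SE 0.24, adjusted p = 0.00520). In litter C alone *Alox5ap* gave -0.068. The *Cysltr1* call was lost without a litter term (adjusted p = 0.0131) and without any 1 of 10 mice, namely male controls 2 and 3, female controls 1, 2, 4 and 5, male mutant 1 and female mutants 1, 3 and 5 (adjusted p 0.0103 to 0.0218). *Alox12*, a lipoxygenase, fell by 0.84 (SE 0.12, adjusted p = 5.65e-05). The macrophage and dendritic cell markers described above also rose over all mice, but *Alox5ap* and *Cysltr1* were not compared with them mouse by mouse. In litter C, where *Alox5ap* did not rise, the marker sum was 168 CPM in male mutant 5 against 118 in male control 5. It was 197 CPM in female mutant 5 against 143 in female control 5. The part of these cells was not tested.

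**Figure D5:**
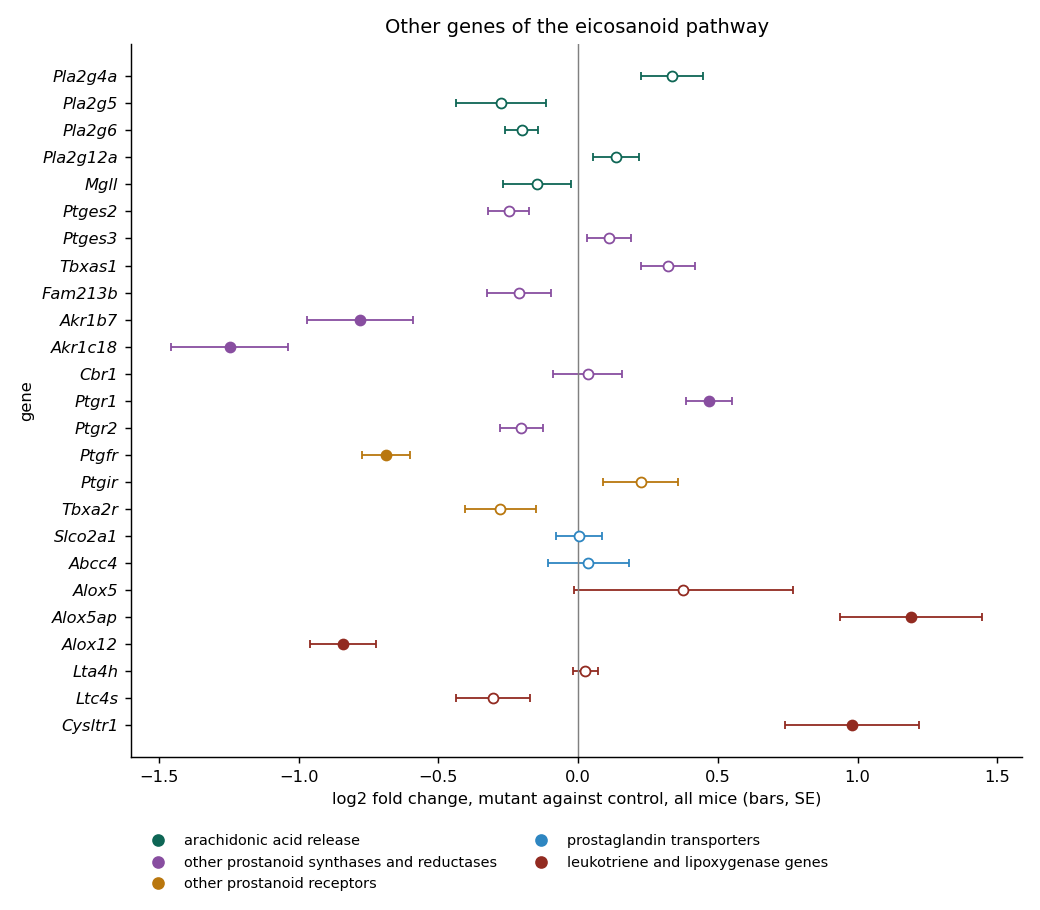
Log2 fold change with SE (bars) of mutants against controls over all mice for 25 further genes of eicosanoid metabolism, colored by list; filled points are DEGs. The 7 filled points are *Akr1b7*, *Akr1c18*, *Ptgfr* and *Alox12* below 0 and *Ptgr1*, *Alox5ap* and *Cysltr1* above 0.

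Sex differences in the same pathway were larger for some of these genes than for the 10. *Akr1c18* averaged 18.5 CPM in male controls and 229 CPM in female controls (log2 difference -3.76, SE 0.32, adjusted p = 3.64e-06). *Cbr1*, a carbonyl reductase that can turn prostaglandin E into prostaglandin F, averaged 39.9 CPM in male and 372 CPM in female controls (-3.20, SE 0.15, adjusted p = 1.63e-08). *Ptgr1* went the other way, with 19.8 CPM in male and 10.2 CPM in female controls (0.94, SE 0.13, adjusted p = 0.000253). All 3 kept direction and call in mutants (adjusted p 4.28e-05, 1.78e-05 and 0.00223), though that of *Ptgr1* was lost without female mutants 1 or 5 or male mutants 3, 4 or 5 (adjusted p 0.0124 to 0.0186). The prostaglandin transporters *Slco2a1* and *Abcc4*, named here after their values were seen, were lower in male controls by 0.78 (adjusted p = 0.000102) and 1.81 (adjusted p = 2.17e-07). In mutants the values were -0.59 for *Slco2a1* (adjusted p = 0.0181) and -0.90 for *Abcc4* (adjusted p = 0.00928), and the latter call was lost without any 1 of 8 of the 10 mutants (adjusted p 0.0129 to 0.0556, all but male mutant 1 and female mutant 4). Between mutants and controls *Slco2a1* gave 0.09 in males and -0.07 in females, while the *Abcc4* values were 0.47 for males (adjusted p = 0.0316) and -0.34 for females (adjusted p = 0.247), with 0.84 for the sex-by-genotype term (SE 0.22, adjusted p = 0.590). None of these passed.

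Genes whose log2 CPM followed that of *Ptgds* most closely over the 20 mice were *Cdkn2c* (Pearson r = 0.954), *Chpf* (0.950), *Arpin* (0.941), *C2* (0.938) and *Glis2* (0.933), among 13780 genes with a mean of at least 1 CPM. Like *Ptgds*, each was higher in all mutants than in all controls. They were taken for likeness to a gene picked for its rise in mutants, so this separation was largely set by the choice. The share of all genes that separate in this way is not given. *Cdkn2c*, a cyclin-dependent kinase inhibitor, was 10.5 to 15.0 CPM in controls and 18.8 to 27.8 in mutants, and *Glis2*, a kidney transcription factor, was 117 to 182 CPM in controls and 188 to 273 in mutants. After the mean of each group was removed, the closest were *Kcne1l* (0.815), *Pld3* (0.767), *Large* (0.736), *Fbxo6* (0.718) and *Tspyl3* (0.712). Of the other 9 genes, *Hpgds* was nearest to *Ptgds* over the 20 mice (r = 0.695), and this fell to 0.255 with group means removed. These values share libraries and scaling, and describe likeness of pattern only.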

How the data were processed

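Whole-kidney RNA of 20 mice was measured, 1 library per mouse. The deposited values are raw gene counts without normalization, which the authors made from trimmed reads (fastp 0.23.2) by alignment with STAR 2.7.10b against mm10. The counting tool, gene annotation and strand setting are not given in the sources used here. The 10 members and all gene lists were chosen with earlier results of these data known.

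The tests used edgeR 4.0.16 under R 4.3.3 (TMM scaling, filterByExpr, quasi-likelihood test, Benjamini-Hochberg adjustment, threshold 0.01). Mutants were compared with controls within a sex, and males with females within a genotype, with litter as a term. All 20 mice entered the joint comparison and the fit of the sex-by-genotype term, with 6 combinations of sex and litter, and the slope on KBW used 10 mutants with sex as a term. Groups came from the labels. KBW took the single kidney weight given for each mouse, which was read as grams, as was body weight. Log2 CPM used a prior count of 2. Levels per kilobase used merged exons of GENCODE vM21. Pairs of libraries of a group differed by more than counting noise (chi-square per degree of freedom 5.72 to 102.7), so each was kept as a replicate.

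On simulated counts in which 200 genes were given a log2 change of 1, the test recovered 84.5% of them in the joint design, 76.0% in males, 65.5% in females, 81.0% and 52.0% between the sexes of controls and mutants, 44.0% for the sex-by-genotype term and 0.5% for the slope. Alternatives were DESeq2 1.42.0 size factors and its Wald test, a fit without litter, no filter, a minimum of 10 counts per mouse, 1 fit of all 20 mice, single litters, other covariates for the slope, and each mouse left out. Promoter letters came from RefSeq (GRCm38.p6) for the 8 members with an entry. Genes named are the 10 members, *Pkd2*, DEGs of the pathway lists, their synthases and receptors, marker genes, and the 5 genes most correlated with *Ptgds* under each measure.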

Additional observations from a re-analysis of the deposited data

Results flagged for a closer look

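In 40 sets of 5 mice (10 genes in 4 groups), 3 held a mouse that lay far from the other 4, by a criterion that chance meets in about 1 of 20 sets. *Ptgds* in female mutant 3 was 79.2 CPM, against 41.6 to 52.3 in the other female mutants. *Ptgs2* in female control 3 was 2.53 CPM, or 43 counts, against 0.984 to 1.37 in the other female controls. *Hpgds* in male mutant 1, which had the highest KBW of all mice (2.15%), was 7.65 CPM, against 1.64 to 3.30 in the other male mutants.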

How the results depend on the processing

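No paired analysis was possible because the labels give the mice no replicate number that is shared across groups; litter was a term of the reported fits. Of 1049 alternative values for the 10 genes, 974 kept their direction and their side of the threshold. In mutants against controls over all mice, 3 of 9 genes were called, which became 0, 0 and 0 in litters A, B and C alone (4 to 9 mice each) and 1 to 5 with a mouse left out. The 7 further pathway genes called became 0, 1 and 1 in the same litters and 5 to 8 with a mouse left out. In males the 1 call became 0 without a litter term and 0 with all 20 mice in 1 fit, and 0 to 1 with a mouse left out. In females the count of 0 became 2 without female mutant 4 (range 0 to 2). Between the sexes of controls 3 calls became 6 without a litter term and 1 to 4 with a mouse left out, with 1 without female control 1 or male control 4. Between the sexes of mutants 1 call became 4 with DESeq2, 2 without a filter, 2 without a litter term, 5 with all 20 mice in 1 fit and 0 to 3 with a mouse left out. For the slope on KBW the count of 0 became 1 with DESeq2. The direction turned for *Ptgs2* (-0.14) and *Hpgd* (-0.11) over all mice in litter B alone, for *Alox5ap* in litter C alone (-0.068), and without a litter term for *Ptger1* in males (0.047) and *Ptgs2* in females (0.065). With a mouse left out, values that turned in some fits ran from -0.032 to 0.089 for *Hpgd* over all mice, -0.085 to 0.049 for *Ptger1* in males, -0.35 to 0.35 for *Ptgs2* in females and -0.26 to 0.056 for *Ptgis* in females. Fewer mice were tested in the litter and left-out fits, and otherwise the cause was not tested. Counts of *Ptgs2* (0 to 56) and *Hpgds* (11 to 178) limit what can be seen in these genes. Counts of DEGs over all genes moved by more than 1.5 times in some settings: over all mice from 2252 to 90, 179 and 388 in litters A, B and C alone, in males from 1185 to 2001 with DESeq2, 690 in 1 fit of all mice and 187 to 1863 with a mouse left out, in females from 92 to 928 with DESeq2, 230 without a filter, 172 without a litter term, 672 in 1 fit of all mice and 3 to 866 with a mouse left out, between the sexes of controls from 2510 to 1223 without male control 4, between those of mutants from 782 to 1959 with DESeq2, 2353 in 1 fit of all mice and 246 to 1330 with a mouse left out, for the sex-by-genotype term from 0 to 18 with DESeq2, 2 without a filter and 3 without female mutant 4, and for the slope from 0 to 579 with DESeq2, 10 with sex and litter as terms and 47 without male mutant 5.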

Other observations

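Female mutant 3 differed from the other female mutants in several of the 10 genes. It had the highest *Ptgds* (79.2 CPM), *Hpgds* (8.89), *Ptger4* (13.7) and *Ptgis* (7.89) of its group and the lowest *Hpgd* (25.1 CPM against 37.8 to 43.3) and *Ptger3* (36.8 CPM against 68.2 to 83.7). It also had the lowest *Pkd2* of the group (93.4 CPM) and the highest sums of the macrophage and dendritic cell markers (524 CPM) and of the fibroblast and pericyte markers (1199.95 CPM). Its KBW of 1.46% was the highest of the female mutants. Female mutant 4 stood at the other end, with a KBW of 0.836%, *Hpgds* at 1.71 CPM and *Ptger4* at 4.03 CPM, while its *Ptgds* was 48.4 CPM. Its *Pkd2* was the highest of the mutants (181 CPM). These mice were singled out after their values were seen.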
